A study of Vitis vinifera with 36 samples.

Results

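The genes described here are the heat shock proteins and heat shock factors of the grape berry. They were chosen by their protein domains. Every gene of the deposited table whose Pfam annotation contained HSP20, HSP70, HSP90 or HSF_DNA-bind was taken, which gave 107 of 25280 genes. Of these, 51 carried the domain of the small heat shock proteins (sHSPs), 26 that of HSP70, 11 that of HSP90 and 19 the DNA-binding domain of the heat shock factors (HSFs). The rule uses no measured value, but it was set with earlier results of these data known. The RNA came from deseeded Cabernet Sauvignon berries (Vitis vinifera) collected in 2015. Field-grown vines had been sprayed at the E-L 33 stage, when berries were hard and green, with the ripening hormone abscisic acid at 1000 mg/L (ABA1000), with the synthetic auxin 1-naphthaleneacetic acid at 100 mg/L (NAA100) or, for the control, with neither hormone. All of these sprays, the control included, contained 0.05% Tween 20 as a wetting agent. Berries were taken at 4 stages, namely E-L 34, then E-L 35 (onset of ripening), then E-L 36 and lastly E-L 38 (harvest), giving 12 groups of 3 libraries and 36 libraries in all. Each replicate pooled the berries of a plot of 50 vines, and 50 berries of it gave the RNA. A stage was reached earlier after ABA and later after NAA, so treatment and calendar date, with its weather, cannot be told apart within a stage.

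Heat shock proteins are molecular chaperones. The sHSPs bind unfolding proteins without using ATP and keep them from aggregating, HSP70 and HSP90 fold or mature client proteins with ATP, and HSFs are the transcription factors that bind heat shock elements in the promoters of these genes. In plants the cytosolic sHSPs of classes I and II and factors of the HsfA2 kind are best known for their induction by heat, while several HSP70 and HSP90 genes, called cognates, are expressed in unstressed tissue. sHSPs also accumulate in seeds and in some fruits during normal development.

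The values were FPKM, that is fragments scaled to transcript length and to the mapped fragments of a library, so that levels of different genes are compared per length. The 36 libraries summed to between 489454 and 596970 FPKM, the relative depth recovered from the lowest steps of the values ran from 0.921 to 1.03, and log2 values of replicates correlated at 0.975 to 0.996. No libraries were identical. Of the 107 genes, 84 reached 1 FPKM in at least 3 libraries and were tested (41 sHSPs, 19 HSP70s, 9 HSP90s and 15 HSFs), among 17598 genes tested in all. Another 18 never reached 1 FPKM in any library. VviMYBA1 (VIT_202s0033g00410), the activator of anthocyanin synthesis in coloured skin, was at 0 to 0.119 FPKM after NAA at the E-L 34 stage and at 1.39 to 3.26 FPKM in the control, while VviUFGT (VIT_216s0039g02230) was listed at 0 in 34 of 36 libraries and so checked nothing. The 25 seed marker genes (described as oleosin, legumin, vicilin, globulin or albumin of the seed kinds) summed to 3416 FPKM in replicate 2 of ABA at E-L 35, to 2922 in replicate 3 of NAA at E-L 35 and to 1879 in replicate 3 of ABA at E-L 34, against 119.8 to 696 FPKM elsewhere. Counts of calls that include these libraries are given with and without them.

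Summed over a family, the sHSPs changed far more between groups than the other families did. Their 51 genes summed to 725 ± 281, 837 ± 95.2, 1033 ± 277 and 342 ± 107 FPKM (SD, n = 3) in control berries at E-L 34, 35, 36 and 38. In NAA-treated berries the sums were 3282 ± 900, 1718 ± 391, 312 ± 45.9 and 339.6 ± 58.6 FPKM, that is 4.53, 2.05, 0.302 and 0.993 times the control. The NAA libraries at E-L 34 lay at 2312 to 4089 FPKM and did not overlap the control libraries at 517 to 1045 FPKM. At E-L 36 the order was the opposite, with 275 to 364 FPKM after NAA and 739 to 1290 FPKM in the control. The 26 HSP70 genes summed to more than any other family in all 4 control groups, with 1955 ± 119.8 FPKM in control berries at E-L 34 and 2718 ± 245 after NAA, a ratio of 1.39. The HSP90 sum was 516 ± 11 in the control and 771 ± 22.6 FPKM after NAA at that stage, a ratio of 1.5, and the HSF sum was 197 ± 16.4 and 271 ± 15.6 FPKM, a ratio of 1.37. Treatment with ABA left the ratios of the sHSP sums at 0.862, 0.983 and 0.836 at E-L 34, 35 and 36, and at 1.99 at E-L 38. The group with the highest mean was NAA at E-L 34 for 65 of the 107 genes (60.7%), among them 40 of 51 sHSPs, 11 of 26 HSP70s, 7 of 11 HSP90s and 7 of 19 HSFs. Those counts include genes that did not reach 1 FPKM in at least 3 libraries. Among the 84 that did, the same group was the highest for 55 (65.5%), beside 28.9% of all 17598 genes that did. Of the 84, 4 reached that level only through the libraries of this group.

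**Figure D1:**
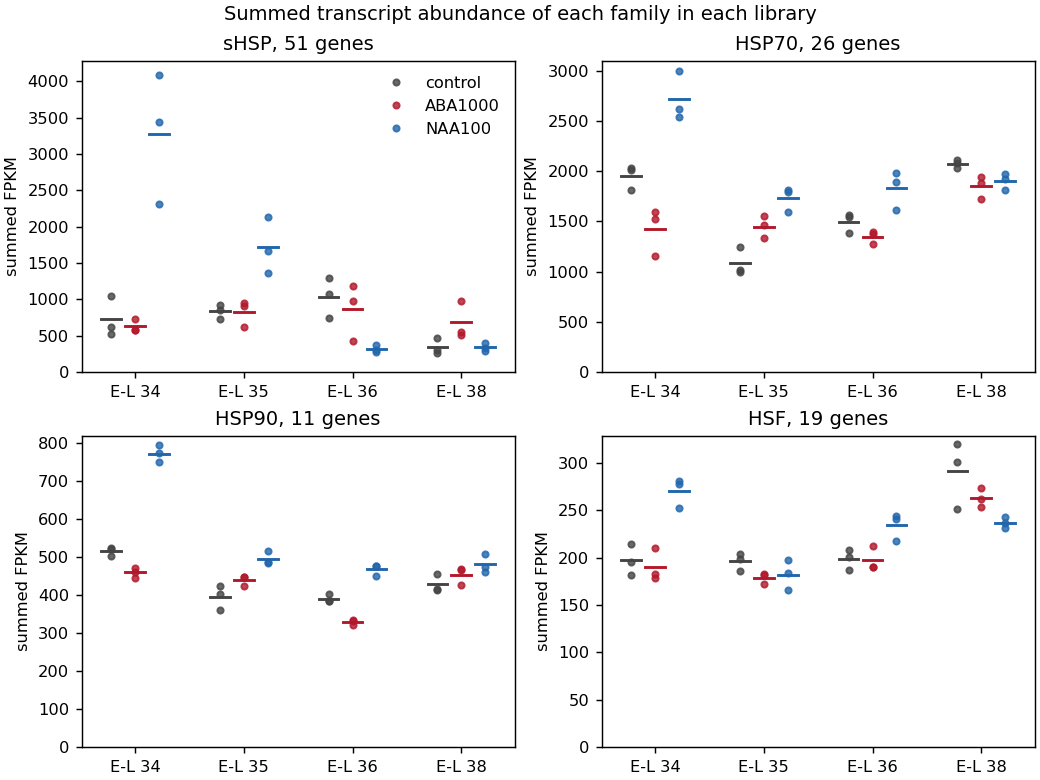
Summed FPKM of the 51 sHSP, 26 HSP70, 11 HSP90 and 19 HSF genes in each library at the 4 stages; points are libraries, bars the mean of 3, and colours the treatment. The sHSP sums of NAA-treated berries lie at 2312 to 4089 FPKM at E-L 34, above the 517 to 1045 FPKM of the control, and at 275 to 364 FPKM at E-L 36, below the 739 to 1290 FPKM of the control.

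The first comparison asked which of these genes differed between NAA-treated and control berries at E-L 34, the first stage sampled after the sprays. Here 41 of 84 rose and 0 fell, where a call needed an absolute log2 fold change of 1 or more together with a p of 0.01 or less from limma on log2(FPKM + 1), adjusted by Benjamini-Hochberg over all genes tested. Of all 17598 genes, 2.25% rose and 1.54% fell by this rule. The risers were 30 of 41 sHSPs, 6 of 19 HSP70s, 3 of 9 HSP90s and 2 of 15 HSFs. The median log2 fold change was 1.97 for the sHSPs, 0.35 for the HSP70s, 0.49 for the HSP90s and 0.11 for the HSFs, beside 0.07 for all genes tested. At an unadjusted p below 0.05, 59 of the 84 were higher and 5 lower, beside 26.1% and 14.3% of all genes. Of the 50 genes with the largest log2 rises in the whole table at this stage, 24 were heat shock genes, and ranks 1 and 2 were a class II sHSP and an HSP90. The 26 chlorophyll-binding genes of green tissue summed to 1299 to 1453 FPKM in these NAA libraries and to 663 to 800 FPKM in the control. Their part in the result was not tested, and in these deseeded berries more cells of a type and more RNA per cell cannot be told apart.

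Among the HSFs, the one annotated with the tomato factor HSF30 (HsfA2), VIT_204s0008g01110 on chromosome 4 (921542 to 923980), moved most. Its values were 3.30, 6.75 and 2.16 FPKM in the control libraries at E-L 34 and 25.9, 38.5 and 49.5 FPKM after NAA. The groups did not overlap, and the means, 4.07 ± 2.39 and 37.9 ± 11.8 (SD, n = 3), differed 9.32-fold (log2 fold change 3.0, SE 0.28, adjusted p = 1.3e-08, limma). The factor A-3, VIT_208s0007g03900, which in Arabidopsis acts in a cascade downstream of drought regulators, was the other HSF that rose. It was at 2.96, 8.22 and 3.64 FPKM in the control and at 15.0, 9.91 and 9.55 FPKM after NAA, so that control replicate 2 came close to the lowest NAA library (1.15, SE 0.25, adjusted p = 0.00082, limma). The more abundant HSFs differed little. HSF A-1, VIT_216s0039g01840, known in Arabidopsis and tomato as a master regulator of the heat response, was at 26.8, 24.4 and 27.4 FPKM in the control and lower, at 17.5, 17.8 and 20.2 FPKM, after NAA (-0.48, SE 0.08, adjusted p = 3.9e-05, limma), under the size needed for a call. HSF A-8, VIT_201s0011g05970, was at 42.9, 51.9 and 54.4 FPKM in the control and at 84.5, 72.2 and 69.3 FPKM after NAA (0.59, SE 0.14, adjusted p = 0.0016, limma), likewise under that size. HSF24, VIT_207s0031g00670, named after the tomato class B factor, had 28.2, 37.6 and 30.7 FPKM in the control and 46.2, 40.7 and 39.8 FPKM after NAA. Its groups did not overlap but it did not pass the test (0.39, SE 0.14, adjusted p = 0.033, limma).

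**Figure D2:**
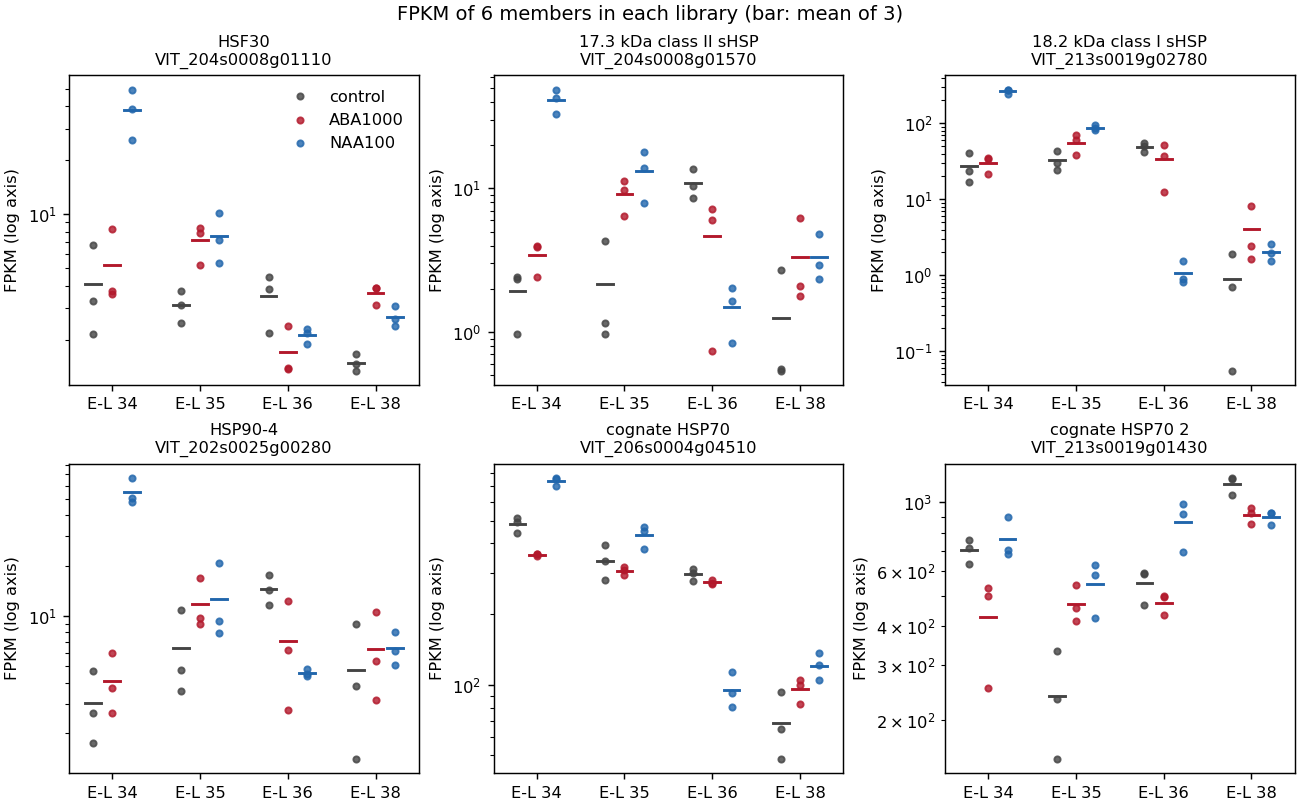
FPKM of 6 genes in each library on a log axis, by stage; points are libraries, bars the mean of 3, colours the treatment. HSF30, the class II and class I sHSPs and HSP90-4 lie above the control in all 3 NAA libraries at E-L 34, and the class I sHSP VIT_213s0019g02780 lies at 0.819 to 1.53 FPKM after NAA at E-L 36 against 41.8 to 55.7 FPKM in the control.

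The sHSPs rose in most classes at E-L 34 after NAA. By class, 13 of 15 tested class I genes, 8 of 9 class II genes, 3 of 3 chloroplastic and 2 of 2 mitochondrial ones rose. The class IV gene of the endoplasmic reticulum, the peroxisomal gene, the C2 gene and the tested RTM2-like gene rose as well, each being the sole tested gene of its class. The RTM2-like gene, VIT_206s0009g01090, passed the filter on low values only through the NAA libraries of this stage, where it is high. The same holds for the class I gene VIT_208s0058g00210, which is counted among the risers. It also holds for the class I genes VIT_217s0000g05710 and VIT_213s0019g02760, which were tested but not called. The largest log2 rise belonged to the class II gene VIT_204s0008g01570 (chromosome 4, 1244737 to 1246530), with 2.35, 2.43 and 0.969 FPKM in the control and 33.0, 42.8 and 48.8 FPKM after NAA. All NAA libraries exceeded all control libraries, and the means of 1.92 ± 0.821 and 41.5 ± 7.96 FPKM (SD, n = 3) differed 21.7-fold (log2 fold change 3.89, SE 0.47, adjusted p = 5.6e-07, limma). Another class II gene, VIT_204s0008g01550, went from 2.38, 3.63 and 1.14 FPKM to 20.8, 35.9 and 30.8 FPKM (3.19, SE 0.45, adjusted p = 5.6e-06, limma). For the class I gene VIT_213s0019g02780 (chromosome 13, 4015394 to 4016080) the control values were 23.8, 41.1 and 16.7 FPKM and the NAA values 242, 278 and 272 FPKM, 9.69-fold higher in the mean (3.32, SE 0.42, adjusted p = 1.1e-06, limma). Again the groups did not overlap.

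The sHSPs with the highest levels over all libraries rose too. VIT_204s0008g01520 of class II, with a mean of 191 FPKM over 36 libraries, was at 90.9, 93.6 and 69.9 FPKM in the control and at 198, 393 and 372 FPKM after NAA (1.86, SE 0.47, adjusted p = 0.0036, limma). VIT_213s0019g03170 of class I was at 79.1, 127 and 77.4 FPKM and at 307, 334 and 425 FPKM (1.92, SE 0.14, adjusted p = 1.7e-10, limma). VIT_213s0019g03000 of class I was at 37.5, 120.4 and 31.2 FPKM and at 177, 349.5 and 433 FPKM (2.50, SE 0.50, adjusted p = 0.00039, limma), so that control replicate 2 was the highest control library in both class I genes. The class I gene VIT_213s0019g02850 had 31.5, 36.6 and 18.7 FPKM in the control and 192, 166 and 204 FPKM after NAA (2.70, SE 0.49, adjusted p = 0.00015, limma). The class II gene VIT_204s0008g01580 had 8.31, 13.9 and 5.92 FPKM and 37.1, 66.6 and 69.3 FPKM (2.52, SE 0.42, adjusted p = 5.4e-05, limma). The small heat shock protein C2, VIT_212s0028g01390 on chromosome 12, showed the closest replicates, 54.5, 67.9 and 48.1 FPKM against 139, 139.8 and 167 FPKM (1.38, SE 0.13, adjusted p = 6.9e-09, limma). In each of these the NAA and control libraries did not overlap. The class III gene VIT_209s0002g00640 was at 23.1, 25.8 and 29.7 FPKM and at 44.2, 41.4 and 37.4 FPKM, above the control in all 3 libraries but by less than the fold needed for a call.

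Many of the sHSP genes lay side by side. On chromosome 13, 15 sHSP genes of class I stood between 3999388 and 4234852 (235 kb), and on chromosome 4, 11 of class II stood between 1221915 and 1257741 (35.8 kb), by the positions in the deposited table, whose genome build is not given in the sources used here. Of the chromosome 13 array 11 genes were tested and 10 rose after NAA at E-L 34, with log2 fold changes over the array from 0.90 to 3.57. The 11 include VIT_213s0019g02760, which passed the filter only through these NAA libraries and was not called. Of the chromosome 4 array 9 were tested and 8 rose, with a range from 0.07 to 3.89. The gene that did not rise on chromosome 4 was VIT_204s0008g01610, singled out after its values were seen. It was at 0 FPKM in all 3 control libraries at E-L 34 and at 0, 0.0963 and 0.0483 FPKM after NAA, yet at 0.6, 142 and 47.4 FPKM in the control libraries of E-L 36. Its replicates thus spanned 0.6 to 142 FPKM within a single group. The seed sums of these libraries were 134, 643 and 184 FPKM. In the libraries with the seed sums of 3416, 1879 and 2922 FPKM the gene was at 75.0, 43.8 and 64.4 FPKM, and in NAA replicate 2 of E-L 35, with a seed sum of 696 FPKM, at 103 FPKM. The part of the seed genes' level in its values was not tested. Neighbouring copies are similar in sequence, and how reads that fit several copies were counted is not given in the sources used here, so the split of reads within an array is uncertain.

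**Figure D3:**
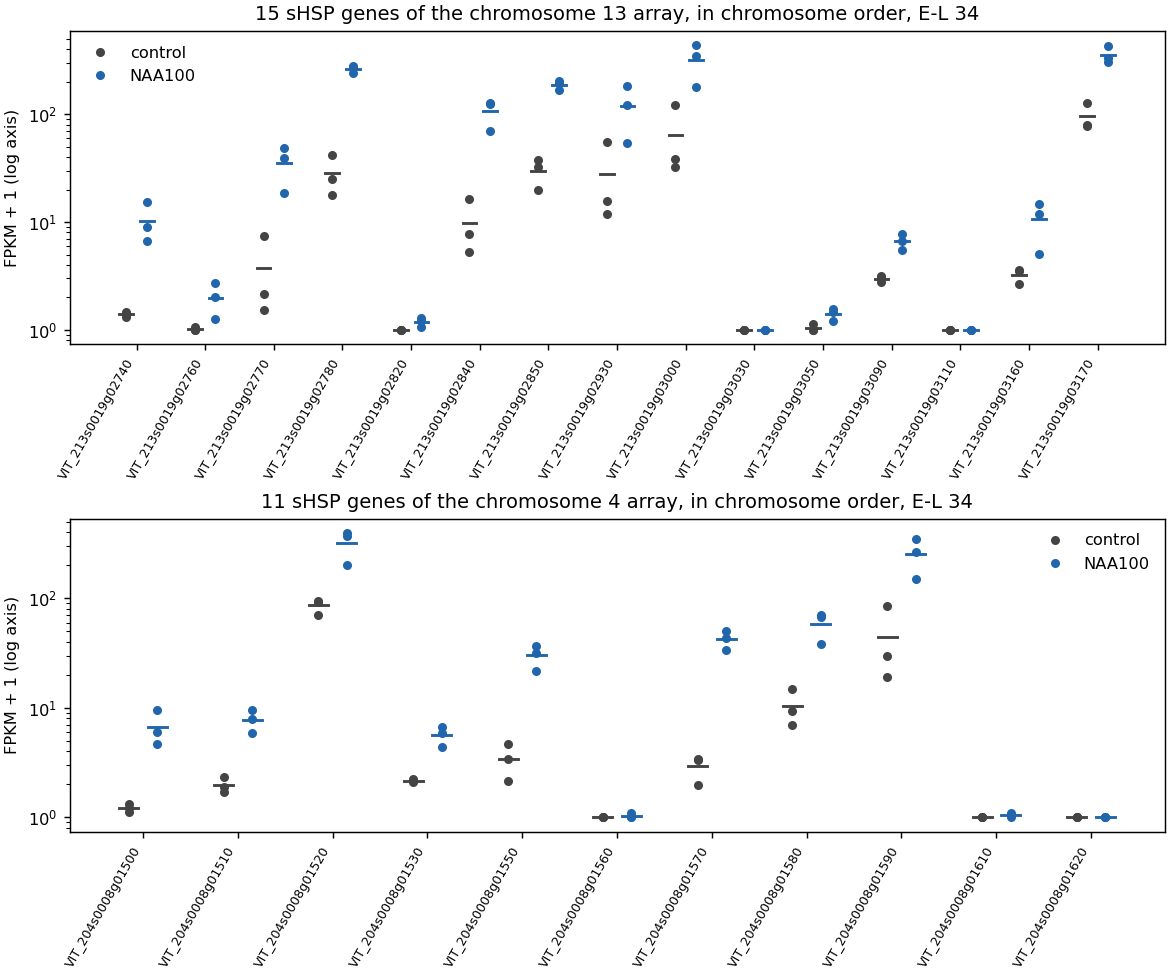
FPKM + 1 on a log axis at E-L 34 for the 15 sHSP genes of the chromosome 13 array and the 11 of the chromosome 4 array, in chromosome order; points are libraries and bars the mean of 3, for control and NAA100. Of the tested genes 10 of 11 and 8 of 9 rose.

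Of the HSP70s, cytosolic, mitochondrial and chloroplastic forms were among the 6 that rose. The cognate gene VIT_206s0004g04470 (chromosome 6, 5417870 to 5421142) was at 45.0, 64.3 and 51.7 FPKM in the control and at 342, 281 and 264 FPKM after NAA, 5.51-fold higher in the mean with no overlap (2.45, SE 0.20, adjusted p = 9.9e-10, limma). HSP70-8, VIT_205s0020g03330, was at 5.22, 7.74 and 4.86 FPKM and at 28.4, 36.9 and 39.8 FPKM, 5.89-fold higher (2.38, SE 0.17, adjusted p = 1.3e-10, limma). The mitochondrial VIT_203s0097g00530 was at 27.9, 29.8 and 24.3 FPKM and at 61.0, 52.9 and 60 FPKM (1.06, SE 0.09, adjusted p = 9.0e-10, limma). HSP70-8 and this mitochondrial gene, like HSF A-3, stand outside the rule for named genes and were chosen after their values were seen. The other risers were a luminal-binding protein of the endoplasmic reticulum (VIT_214s0060g02340, 1.74), a stromal HSP70 of the chloroplast (VIT_218s0041g01230, 1.31) and VIT_209s0002g02743 (1.33), which carries the HSP70 domain name but is annotated as an importin subunit. The most abundant member of all, the cognate VIT_213s0019g01430 with a mean of 667 FPKM over 36 libraries, did not differ past the threshold, at 632, 715 and 756 FPKM in the control and 895, 684 and 702 FPKM after NAA, which overlapped. The cognate VIT_206s0004g04510 was at 444, 514 and 492 FPKM and at 763, 703 and 750.4 FPKM, a difference without overlap but under the fold needed (0.61, SE 0.15, adjusted p = 0.0036, limma). The stromal VIT_217s0000g03310 was likewise above the control in each library, at 152, 157 and 164 FPKM against 118, 119.9 and 118 FPKM (0.41, SE 0.07, adjusted p = 3.5e-05, limma).

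Of the HSP90s, a pair of genes that were low in the control moved most and the abundant ones little. HSP90-4, VIT_202s0025g00280 (chromosome 2, 412404 to 416196), was at 2.64, 4.70 and 1.75 FPKM in the control and at 66.9, 47.7 and 50.4 FPKM after NAA. The groups were far apart, with means of 3.03 ± 1.51 and 55.0 ± 10.4 FPKM (SD, n = 3) that differed 18.1-fold (3.85, SE 0.46, adjusted p = 5.9e-07, limma). HSP83, VIT_216s0050g01150 on chromosome 16, was at 2.73, 5.37 and 1.70 FPKM and at 35.8, 46.1 and 50.6 FPKM, 13.5-fold higher (3.48, SE 0.31, adjusted p = 4.2e-09, limma). The third riser was an HSP90-1 gene (VIT_212s0057g00670, 1.12). HSP81-3, VIT_219s0015g01090, the HSP90 gene with the highest mean, was at 183, 195 and 169 FPKM and at 251, 237 and 260.2 FPKM (0.45, SE 0.07, adjusted p = 4.8e-05, limma). The cognate protein 80 gene VIT_200s0194g00030 was at 132, 128 and 129 FPKM and at 207, 172 and 171 FPKM (0.49, SE 0.09, adjusted p = 0.00020, limma). Both were above the control in all 3 libraries and under the fold needed. Endoplasmin, VIT_218s0001g14500, the HSP90 of the endoplasmic reticulum, overlapped between the groups, at 124, 94.6 and 121 FPKM in the control and 94.1, 102 and 90.4 FPKM after NAA.

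At E-L 35 the summed sHSPs, HSP70s and HSP90s of NAA-treated berries were 2.05, 1.6 and 1.25 times the control, and fewer genes passed the test than at E-L 34. The HSFs had a summed ratio of 0.927 and a median log2 fold change of -0.08. In this comparison 11 genes rose and 0 fell, beside 1.28% and 1.16% of all genes: 5 sHSPs, 4 HSP70s, 1 HSP90 and 1 HSF. The median log2 fold change of the 84 was 0.38, beside 0.02 for all genes, and 40 were higher and 5 lower at an unadjusted p below 0.05, beside 20.3% and 16.3% of all genes. VIT_204s0008g01570 was at 7.97, 13.8 and 17.9 FPKM against 1.16, 0.970 and 4.32 FPKM in the control, without overlap (2.27, SE 0.47, adjusted p = 0.00097, limma). HSP83 was at 9.81, 12.8 and 12.4 FPKM against 3.01, 2.15 and 5.38 FPKM (1.54, SE 0.31, adjusted p = 0.00074, limma). HSF30 was at 5.33, 7.15 and 10.2 FPKM against 3.74, 2.48 and 3.14 FPKM (1.02, SE 0.28, adjusted p = 0.0097, limma), a call at the edge of both limits that was lost with a pseudocount of 0.1. Of the 11 genes, 9 were among the 41 of 84 that rose at E-L 34 (81.8% of the 11 and 22.0% of the 41). The same overlap over all genes was not computed. The count fell to 6 without control replicate 1 or 2 and to 7 without NAA replicate 2 of this stage, and it was 9 without NAA replicate 3, the library with the high seed sum. The green tissue sum was 945 to 1342 FPKM after NAA and 550 to 672 FPKM in the control, and its part was not tested.

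At E-L 36 the sHSPs were lower after NAA than in the control, and so they were in control berries at E-L 38 against E-L 36. The comparisons share the control libraries of E-L 36, so their results are not independent and each is given by its own values. In NAA-treated berries 3 of 84 rose and 22 fell, where 9.05% of all genes rose and 10.8% fell. The genes that fell were 19 of 41 sHSPs, 2 HSP70s and 1 HSP90, and those that rose were 3 HSP70s. In control berries from E-L 36 to E-L 38, 6 rose and 21 fell, where 9.47% of all genes rose and 7.76% fell. Here 19 sHSPs, 1 HSP70 and 1 HSP90 fell, and 4 HSP70s and 2 HSFs rose. Rescaling the libraries by the median of ratios changed the latter to 2 rises and 27 falls, since all genes together shifted by a median of 0.15 in this comparison. The sHSP medians of the log2 fold change were -1.15 and -1.21, beside 0.09 and 0.15 for all genes. The 41 genes that rose after NAA at E-L 34 included 19 of the 22 that fell after NAA at E-L 36 (86.4% of these, 46.3% of the 41). The same overlap over all genes was not computed. The sHSPs were 30 of the 41 and 19 of the 22, and the part of this family make-up in the overlap was not tested. The green tissue sum was again higher after NAA, at 647 to 876 FPKM against 390 to 460 FPKM, in the opposite direction to the sHSPs, and its part was not tested.

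A pair of class I genes of the chromosome 13 array fell most. VIT_213s0019g02780 was at 41.8, 55.7 and 49.6 FPKM in control berries at E-L 36, at 1.53, 0.899 and 0.819 FPKM after NAA at that stage, and at 0.0554, 1.89 and 0.701 FPKM in control berries at E-L 38. Neither lower group came near the first. The log2 fold changes were -4.59 (SE 0.42, adjusted p = 2.0e-10, limma) after NAA and -4.84 (SE 0.42, adjusted p = 9.6e-11, limma) from E-L 36 to E-L 38. VIT_213s0019g02850 (4048636 to 4049360) was at 51.2, 91.3 and 78.8 FPKM, then at 2.02, 1.12 and 1.40 FPKM after NAA and at 0.840, 4.59 and 0.358 FPKM in the control at E-L 38. Its log2 fold changes were -4.87 (SE 0.49, adjusted p = 1.4e-09, limma) and -4.92 (SE 0.49, adjusted p = 1.5e-09, limma). The class III gene VIT_209s0002g00640 was at 22.2, 20.4 and 25.2 FPKM, at 5.10, 3.99 and 4.01 FPKM after NAA (-2.14, SE 0.19, adjusted p = 1.9e-10, limma) and at 2.03, 5.16 and 2.29 FPKM at E-L 38 (-2.57, SE 0.19, adjusted p = 7.5e-12, limma). Both arrays took part in the fall from E-L 36 to E-L 38, with 7 of 11 tested genes on chromosome 13 and 5 of 9 on chromosome 4.

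Of the 19 tested HSP70s, 3 rose (15.8%) and 2 fell (10.5%) after NAA at E-L 36, beside 9.05% and 10.8% of all genes. In control berries from E-L 36 to E-L 38, 4 rose (21.1%) and 1 fell (5.26%), beside 9.47% and 7.76%. The shares that fell were thus no higher than those of all genes. The mitochondrial HSP70 VIT_200s0415g00030, which lies on a sequence not assigned to a chromosome, was at 28.2, 28.2 and 30.3 FPKM in the control at E-L 36. It was at 63.1, 78.9 and 75.0 FPKM after NAA (1.29, SE 0.11, adjusted p = 2.9e-11, limma) and at 80.8, 80.5 and 93.5 FPKM in the control at E-L 38 (1.52, SE 0.11, adjusted p = 1.8e-12, limma), both far above it. The other tested mitochondrial gene, VIT_203s0097g00530, had log2 fold changes of 1.28 and 1.17, and the cognate VIT_206s0004g04470 of 1.45 and 1.25. The cognate VIT_206s0004g04510 went the other way. It was at 276, 309.9 and 300.3 FPKM in the control at E-L 36, at 113, 92.2 and 80.2 FPKM after NAA (-1.64, SE 0.15, adjusted p = 3.9e-10, limma) and at 65.1, 93.2 and 48.3 FPKM in the control at E-L 38 (-2.13, SE 0.15, adjusted p = 3.6e-12, limma). Of these cognates of chromosome 6, VIT_206s0004g04470 thus exceeded VIT_206s0004g04510 in control berries at E-L 38 but not at the earlier stages.

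HSP90-4 fell in both comparisons, from 11.7, 14.3 and 17.5 FPKM to 4.86, 4.49 and 4.38 FPKM after NAA (-1.46, SE 0.46, adjusted p = 0.0070, limma) and to 1.40, 8.99 and 3.84 FPKM in control berries at E-L 38 (-1.65, SE 0.46, adjusted p = 0.0028, limma). The fall after NAA was not called with a pseudocount of 0.1, without the filter on low values or after rescaling to TPM. HSF24 rose in control berries from 65.1, 50.4 and 53.0 FPKM at E-L 36 to 147, 93.7 and 126 FPKM at E-L 38 (1.09, SE 0.14, adjusted p = 7.7e-08, limma), a change of 0.89 and so no call under median-of-ratios scaling. HSF B-3, VIT_208s0007g08750, a class B factor without an activation domain, rose from 0.490, 0.580 and 0.321 FPKM to 3.90, 0.412 and 2.91 FPKM (1.04, SE 0.27, adjusted p = 0.0016, limma), with replicate 2 of E-L 38 inside the range of E-L 36.

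**Figure D4:**
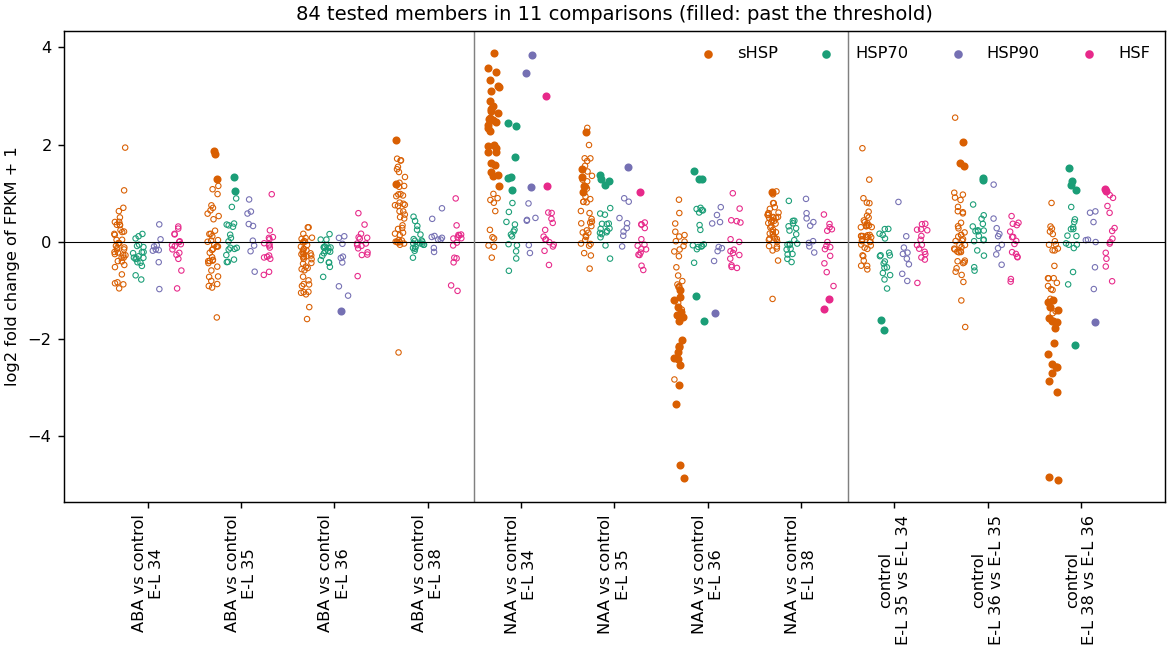
Log2 fold changes of FPKM + 1 for the 84 tested genes in the 8 treatment comparisons and the 3 control comparisons between stages; each point is a gene, colours are families, and filled points passed the threshold. After NAA at E-L 34 38 of 41 sHSPs lie above 0 and 30 were called, while sHSPs reach -4.87 after NAA at E-L 36 and -4.92 in control berries from E-L 36 to E-L 38.

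At E-L 38 few genes differed between NAA-treated and control berries, 1 rising and 2 falling, beside 0.398% and 3.02% of all genes. The class III sHSP VIT_209s0002g00640 rose, at 6.19, 7.57 and 7.49 FPKM after NAA against 2.03, 5.16 and 2.29 FPKM in the control (1.03, SE 0.19, adjusted p = 0.00030, limma). HSF B-3 fell, at 0.0871, 0.255 and 0.113 FPKM against 3.90, 0.412 and 2.91 FPKM (-1.39, SE 0.27, adjusted p = 0.00051, limma). HSF B-2a, VIT_210s0597g00050, of the class B repressor kind, fell as well, at 0.0403, 0.0394 and 0.118 FPKM against 3.45, 0.114 and 1.79 FPKM (-1.17, SE 0.30, adjusted p = 0.0051, limma). Both falls rest on control replicates 1 and 3 at levels under 4 FPKM. Without either of these libraries no gene was called, without control replicate 2 the count was 5 (2 rising and 3 falling), and without NAA replicate 2 or 3 it was 1. The sHSPs as a group had a median log2 fold change of 0.38, with 34 of 41 above 0, beside a median of -0.05 for all genes. The green tissue sum was 562 to 913 FPKM after NAA and 492 to 517 FPKM in the control, and its part was not tested.

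Between the earlier stages of control berries 2 of the 4 tested cognate HSP70s moved down and up again. From E-L 34 to E-L 35, 0 rose and 2 fell, beside 0.977% and 1.72% of all genes, and from E-L 35 to E-L 36, 5 rose and 0 fell, beside 0.79% and 3.87%. VIT_208s0007g00130 on chromosome 8 was at 102, 158 and 129 FPKM at E-L 34, at 24.8, 32.0 and 56.0 FPKM at E-L 35 and at 103, 73.3 and 95.3 FPKM at E-L 36. All 3 libraries of E-L 35 were the lowest, and the changes were -1.81 (SE 0.28, adjusted p = 3.7e-05, limma) and 1.31 (SE 0.28, adjusted p = 0.00044, limma). VIT_213s0019g01430 showed a like dip, with 632, 715 and 756 FPKM, 149.8, 233 and 334 FPKM, then 593, 469.5 and 591 FPKM and, at E-L 38, 1189, 1057 and 1201 FPKM. Its changes were -1.62, 1.27 and 1.06 (SE 0.23 each), the last at 0.86 under median-of-ratios scaling. The cognate VIT_206s0004g04510 had -0.53 and -0.18 at these steps and VIT_206s0004g04470 -0.96 and 0.77, none of them called. Of the sHSPs, class II genes of the chromosome 4 array were the 3 that rose from E-L 35 to E-L 36. VIT_204s0008g01570 went from 1.16, 0.970 and 4.32 FPKM to 8.64, 10.5 and 13.8 FPKM (2.06, SE 0.47, adjusted p = 0.00098, limma), with replicate 3 the highest at both stages. The count of 5 rises fell to 3 without replicate 1 of E-L 35 or replicate 3 of E-L 36, and the count of 2 falls was 4 without replicate 1 of E-L 34. All genes together shifted by a median of -0.16 from E-L 35 to E-L 36, and after rescaling to TPM the split was 5 rises and 1 fall.

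Few of these genes were called after treatment with ABA. At E-L 34, 0 of 84 were called in either direction, beside 0.136% of all genes rising and 0.551% falling. At an unadjusted p below 0.05, 3 were higher and 17 lower (20.2%), beside 6.09% and 20.2% of all genes. After rescaling to TPM 1 gene was called, and without control replicate 1 there were 2. Without ABA replicate 3, the library with the high seed sum, the count was again 0. The mean of HSF30 was 5.20 ± 2.69 FPKM after ABA and 4.07 ± 2.39 FPKM in the control (SD, n = 3), within the spread. At E-L 35 it was at 8.42, 7.85 and 5.25 FPKM after ABA against 3.74, 2.48 and 3.14 FPKM (0.98, adjusted p = 0.016, limma), and at E-L 38 at 3.13, 3.86 and 3.89 FPKM against 1.34, 1.67 and 1.47 FPKM (0.89, adjusted p = 0.042, limma). In both the groups did not overlap, and neither difference was called.

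At E-L 35, 5 of 84 genes (5.95%) rose after ABA and 0 fell, beside 0.847% and 0.608% of all genes. The called genes were 3 sHSPs and 2 cognate HSP70s. With p below 0.05 before adjustment (limma), 22 were higher (26.2%) and 13 lower (15.5%), beside 11.3% and 23.6% of all genes. The class II genes VIT_204s0008g01550 and VIT_204s0008g01570 led. The former was at 17, 14.4 and 13.9 FPKM after ABA against 2.56, 2.24 and 6.24 FPKM in the control (1.88, SE 0.45, adjusted p = 0.0045, limma). The latter was at 11.2, 9.70 and 6.42 FPKM against 1.16, 0.970 and 4.32 FPKM (1.81, SE 0.47, adjusted p = 0.0076, limma). In both, control replicate 3 was the highest control library and still below every ABA library. The cognates VIT_208s0007g00130 and VIT_213s0019g01430, which dipped in the control at this stage, had log2 fold changes of 1.33 and 1.04 after ABA and of 1.30 and 1.24 after NAA, against shared control libraries. Without control replicate 1 none of the 84 was called. Without ABA replicate 1 or 3 the count was 2, and without control replicate 2 or ABA replicate 2, the library with the high seed sum, it was 3. The green tissue sum was 802 to 884 FPKM after ABA and 550 to 672 FPKM in the control at this stage, and its part was not tested.

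At E-L 36, 0 genes rose after ABA and 1 fell, beside 0.489% and 0.176% of all genes. At an unadjusted p below 0.05, 2 were higher and 21 lower (25% of the 84), beside 8.42% higher and 18.8% lower among all genes. The gene that fell was a low-level HSP81-3 copy, VIT_211s0103g00460, at 1.04, 0.520 and 0.696 FPKM against 4.13, 3.32 and 3.55 FPKM, with no overlap (-1.42, SE 0.30, adjusted p = 0.0031, limma). It was not called without control replicate 1 or 3 or without ABA replicate 3. At E-L 38, 2 sHSPs rose after ABA and 0 fell, beside 0.182% and 0.466% of all genes. With p below 0.05 before adjustment (limma), 27 of the 84 were higher (32.1%) and 5 lower (5.95%), beside 15.7% and 9.92% of all genes. The C2 gene VIT_212s0028g01390 was at 25.7, 26.2 and 28.3 FPKM against 12.1, 11.8 and 9.68 FPKM in the control (1.19, SE 0.13, adjusted p = 2.8e-06, limma). The class II gene VIT_204s0008g01580 was at 22.4, 50.8 and 21.5 FPKM against 4.69, 10.7 and 4.19 FPKM (2.10, SE 0.42, adjusted p = 0.0024, limma), so that replicate 2 was high in both groups. Over the 41 sHSPs the median log2 fold change at E-L 38 was 0.74, with 35 above 0, beside 0.03 for all genes. The green tissue sum was 548 to 712 FPKM after ABA against 492 to 517 FPKM in the control, and the seed sum 137 to 146 FPKM against 173 to 308 FPKM. Their part was not tested. How many passed depended on single libraries. Without control replicate 2, 9 genes were called (7 rising and 2 falling), and without control replicate 1 or 3 or ABA replicate 2 only 1 was.

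Whether a treatment effect differed between consecutive stages was tested as the change of the log2 fold change. For NAA, the signed log2 fold change moved up for 1 gene and down for 15 from E-L 34 to E-L 35 (beside 2.48% of all genes in either direction), up for 4 and down for 31 from E-L 35 to E-L 36 (beside 22.9%), and up for 18 and down for 4 from E-L 36 to E-L 38 (beside 19.5%). HSP90-4 had the change of -2.95 (SE 0.66, adjusted p = 0.0029, limma) at the first step, and VIT_213s0019g02850 had changes of -6.23 and then 5.46 at the other two. The changes are signed, so that a fall below the control counts as down and a return toward it as up. Consecutive changes share the libraries of the stage between them, so their counts are not independent. The count at the first step was 10 without replicate 3 of the control or of NAA at E-L 34. Without NAA replicate 3 of E-L 35, the library with the high seed sum, the counts were 13 at the first step and 33 at the second. Median-of-ratios scaling gave 3 and 13 at the first step and 23 and 2 at the last. For ABA, the log2 fold change moved up for 3 genes from E-L 34 to E-L 35 (beside 0.955% of all genes), down for 5 from E-L 35 to E-L 36 (0.676%) and up for 8 from E-L 36 to E-L 38 (1.39%). The first of these was 4 without ABA replicate 3 of E-L 34 and 3 without ABA replicate 2 of E-L 35, the libraries with high seed sums, and 1 without control replicate 1 or ABA replicate 3 of E-L 35 or ABA replicate 1 of E-L 34. The second was 3 without replicate 1 or 2 of the control or of ABA at E-L 35, control replicate 1 or 3 or ABA replicate 1 at E-L 36. The third was 4 or 5 without any control library of E-L 36, control replicate 1 or 3 of E-L 38, ABA replicate 1 of E-L 36 or ABA replicate 1 or 2 of E-L 38, and 13 (11 up and 2 down) without control replicate 2 of E-L 38.

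The other chaperone genes were set beside the heat shock genes. From a list of Pfam names for partners of the heat shock proteins, 110 genes were found and 106 tested. A gene was taken only where its Pfam annotation was a listed name and nothing else, so partners with further domains were left out. The listed names ClpB_D2-small, AHSA1 and STI1 gave no gene in this way. The counts below are thus of a part of the partners. DnaJ proteins stimulate the ATPase of HSP70, GrpE and BAG proteins exchange its nucleotide or bind it, chaperonins (Cpn60 and Cpn10) enclose folding proteins, Aha1 activates HSP90, and MBF1c is a heat-induced coactivator in Arabidopsis. At E-L 34 after NAA 8 rose (7.55%, beside 2.25% of all genes) and 0 fell, with a median log2 fold change of 0.07. They were 3 DnaJ genes, 2 Cpn60, 1 Cpn10, 1 BAG (VIT_201s0146g00150, 1.67) and MBF1c (VIT_211s0016g04080, 1.35). At E-L 36 after NAA 6 rose (5.66%, beside 9.05% of all genes) and 11 fell (10.4%, beside 10.8%), shares at or below those of all genes, among them MBF1c at -2.53, a dnaJ 11 gene (VIT_218s0001g14440) at -4.02, and GrpE-domain genes in both directions (VIT_216s0022g00640 at -2.20 and VIT_219s0090g01190 at 1.24). In control berries from E-L 36 to E-L 38, 6 rose (5.66%, beside 9.47%) and 7 fell (6.60%, beside 7.76%), with MBF1c at -3.21. After ABA at E-L 35 4 rose (3.77%, beside 0.847%) and 0 fell, with MBF1c at 1.33. The genes named here were chosen after their values were seen.

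**Figure D5:**
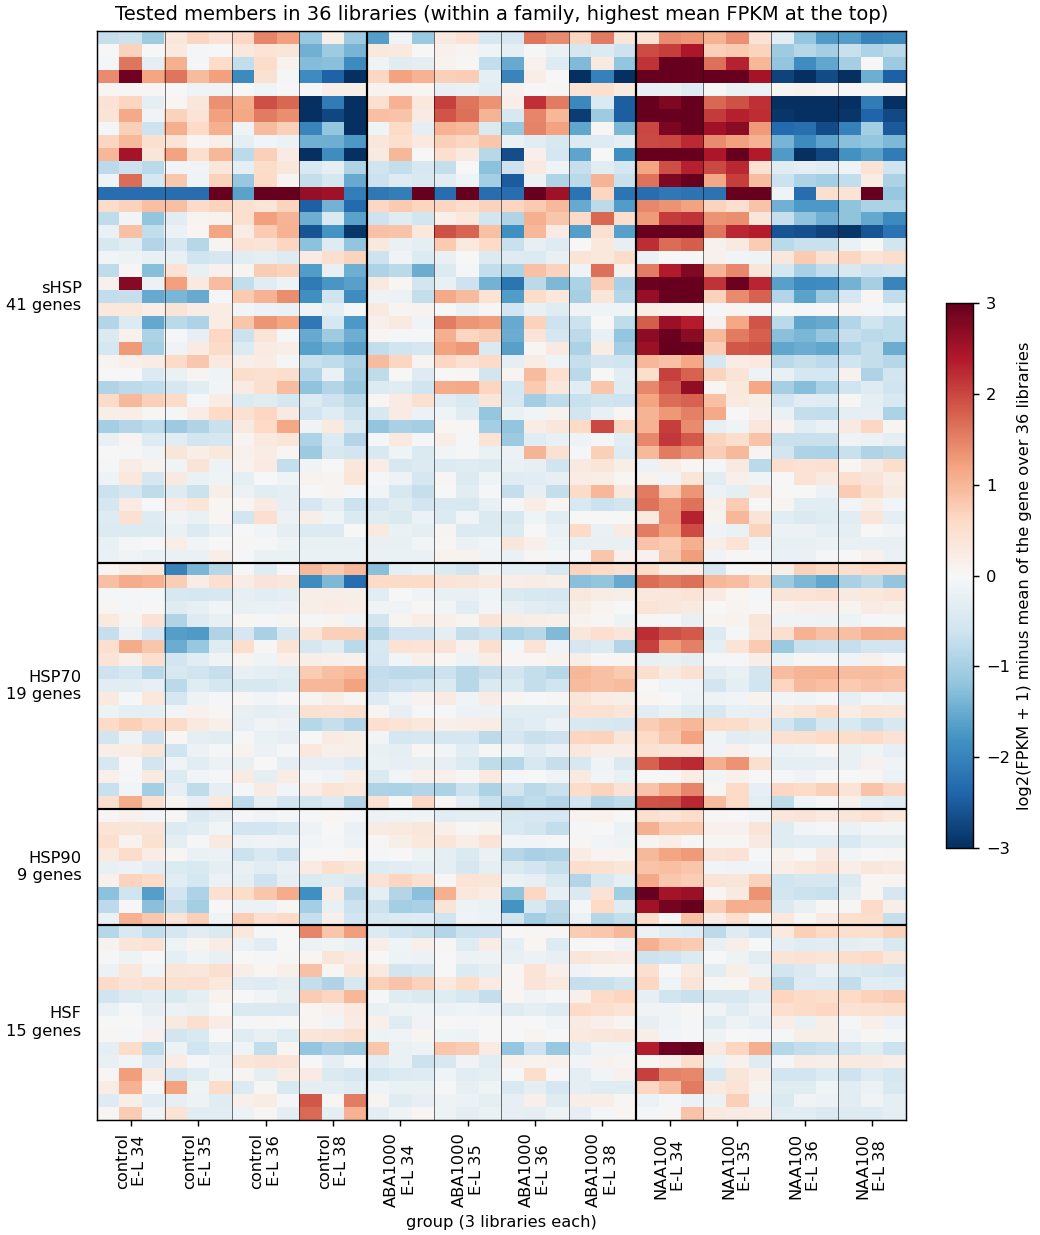
Level of each of the 84 tested genes in the 36 libraries, as log2(FPKM + 1) minus the mean of the gene over all libraries; rows are genes by family with the highest mean FPKM at the top, columns are libraries in 12 groups of 3. The 3 columns of NAA at E-L 34 are the darkest red among the sHSPs, and the columns of NAA at E-L 36 and of the control at E-L 38 are blue for most of them.

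Among themselves the families thus differed in how many genes moved and in which direction. The member with the highest mean FPKM was the cognate HSP70 VIT_213s0019g01430. Its level of 1149 ± 80.2 FPKM (SD, n = 3) in control berries at E-L 38 exceeded the summed sHSPs of that group. The HSFs stood apart from the sHSPs in their highest group. Of 19 HSFs, 7 peaked in control berries at E-L 38 and 7 in E-L 34 berries after NAA, against 1 and 40 of 51 sHSPs. For all genes tested the shares were 12.8% and 28.9%. The counts of HSFs and sHSPs take in genes that were not tested. Among the HSFs highest after NAA, an A-6b gene that was not tested peaked at a mean of 1.38 FPKM. The B-4 genes, also not tested, peaked there at 0.141 and 0.0242 FPKM. Among those highest in the control, another A-6b gene that was not tested peaked at 0.102 FPKM. The tested B-3 and B-2a genes peaked there at 2.41 and 1.78 FPKM. Control berries at E-L 38 were the lowest group of 17 of 51 sHSPs, beside 8.13% of all genes tested. That count takes in genes that were not tested and genes tied at 0 with other groups. Of the 23 genes that were not tested, 10 were sHSPs, 7 HSP70s, 2 HSP90s and 4 HSFs, and none exceeded 2.50 FPKM in any library. Of the tested genes 4 passed the filter only through the NAA libraries of E-L 34, and 2 of these (VIT_206s0009g01090 and VIT_208s0058g00210) are among the 41 called there. Some genes carry a heat shock domain name but another annotation. VIT_204s0008g01480, for example, is listed as a 28S rRNA methyltransferase, and 3 sHSP genes as RTM2-like.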

How the data were processed

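RNA-seq values were deposited by the authors as FPKM for 25280 genes in 36 libraries. Per the paper's methods and the labels, reads were mapped to the CRIBI grape genome with TopHat and Bowtie; versions and the counting tool are not given in the sources used here, and the methods call the values RPKM while the sample titles say FPKM. No counts were used, so sampling error per gene is known only through replicates. Columns were assigned to groups by name; their replicate numbers are used as printed there. Heat shock genes were selected by the Pfam column. The members and gene lists were chosen with earlier results of these data known. Genes with at least 1 FPKM in at least 3 libraries (17598) were fitted with limma 3.58.1 (R 4.3.3; trend, log2(FPKM + 1), 12 group means, 24 residual degrees of freedom), where 1 is the pseudocount, and p-values were Benjamini-Hochberg adjusted over all genes tested. Fold changes on this scale understate changes of low genes. The p-values measure the spread between plots. Alternatives were another pseudocount, no filter, other scalings, fits of only the 6 libraries compared, replicate as a block, and omission of each library. Named genes were, among called members, the 2 strongest rises and 2 strongest falls per treatment comparison, the strongest rise and fall per family between control stages, the 3 most abundant per family, and HSFs called in at least 2 of the 11 comparisons. The scripts were tested on simulated data. Python 3.11.15, pandas 2.3.3 and matplotlib 3.10.9 were used. The table's own annotation supplied gene names.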

Additional observations from a re-analysis of the deposited data

Results flagged for a closer look

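For 19 of the heat shock genes described by name, 44 changes of a treatment effect between consecutive stages passed the test of the difference itself (limma, adjusted p over all genes tested from 1.4e-11 to 0.0096, SE from 0.15 to 0.70). Each value is the later log2 fold change minus the earlier one, so a negative value is a move down, and all are given without an explanation. Consecutive changes of a gene share the libraries of the stage between them, so the 44 are not independent. For HSF30 VIT_204s0008g01110 the NAA effect changed by -1.97 from E-L 34 to E-L 35 and by -1.51 from E-L 35 to E-L 36, and the ABA effect changed by 1.6 from E-L 36 to E-L 38. The NAA effect changed by -1.07 from E-L 36 to E-L 38 for HSF24 VIT_207s0031g00670. In HSP90-4 VIT_202s0025g00280 the NAA effect changed by -2.95 from E-L 34 to E-L 35, -2.35 from E-L 35 to E-L 36 and by 2.05 from E-L 36 to E-L 38. For HSP83 VIT_216s0050g01150 the NAA effect changed by -1.94 from E-L 34 to E-L 35 and by -1.65 from E-L 35 to E-L 36. The NAA effect changed by 1.2 from E-L 35 to E-L 36 and by -1.54 from E-L 36 to E-L 38 for the mitochondrial HSP70 VIT_200s0415g00030. In the cognate HSP70 VIT_206s0004g04470 the NAA effect changed by -1.07 from E-L 34 to E-L 35 and by -1.03 from E-L 36 to E-L 38, and the ABA effect changed by -1.27 from E-L 35 to E-L 36. For the cognate HSP70 VIT_206s0004g04510 the NAA effect changed by -2.0 from E-L 35 to E-L 36 and by 2.48 from E-L 36 to E-L 38. In the cognate HSP70 VIT_208s0007g00130 the NAA effect changed by -2.42 from E-L 35 to E-L 36, and the ABA effect changed by 2.02 from E-L 34 to E-L 35. In the cognate HSP70 VIT_213s0019g01430 the ABA effect changed by 1.82 from E-L 34 to E-L 35. For the class II sHSP VIT_204s0008g01520 the NAA effect changed by -2.64 from E-L 35 to E-L 36. In the class II sHSP VIT_204s0008g01550 the NAA effect changed by -3.99 from E-L 35 to E-L 36 and by 3.13 from E-L 36 to E-L 38, and the ABA effect changed by -3.47 from E-L 35 to E-L 36 and by 2.57 from E-L 36 to E-L 38. In the class II sHSP VIT_204s0008g01570 the NAA effect changed by -4.53 from E-L 35 to E-L 36 and by 3.3 from E-L 36 to E-L 38, and the ABA effect changed by -3.15 from E-L 35 to E-L 36. For the class II sHSP VIT_204s0008g01580 the NAA effect changed by -3.13 from E-L 35 to E-L 36, and the ABA effect changed by 2.69 from E-L 36 to E-L 38. The NAA effect changed by -6.04 from E-L 35 to E-L 36 and by 5.39 from E-L 36 to E-L 38 for the class I sHSP VIT_213s0019g02780. In the class I sHSP VIT_213s0019g02850 the NAA effect changed by -6.23 from E-L 35 to E-L 36 and by 5.46 from E-L 36 to E-L 38. For the class I sHSP VIT_213s0019g03000 the NAA effect changed by -2.64 from E-L 35 to E-L 36 and by 2.3 from E-L 36 to E-L 38. In the class I sHSP VIT_213s0019g03170 the NAA effect changed by -1.29 from E-L 34 to E-L 35, -1.97 from E-L 35 to E-L 36 and by 1.83 from E-L 36 to E-L 38, and the ABA effect changed by 1.32 from E-L 36 to E-L 38. In the class III sHSP VIT_209s0002g00640 the NAA effect changed by -2.1 from E-L 35 to E-L 36 and by 3.17 from E-L 36 to E-L 38. For the small heat shock protein C2 VIT_212s0028g01390 the NAA effect changed by -2.46 from E-L 35 to E-L 36 and by 1.74 from E-L 36 to E-L 38, and the ABA effect changed by 1.34 from E-L 36 to E-L 38.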

How the results depend on the processing

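No called fold change of a named gene changed direction under any alternative that was run, and none that was not called became a call in the other direction. Changes of sign in fold changes that were never called were not counted. Of 67 calls of named genes, 36 stayed under every alternative, or 43 when the fit of only 6 libraries was left aside, and of 44 calls of a changed effect 30 stayed. Most counts of heat shock genes called stayed within 1.5 times the reported one. With a pseudocount of 0.1 the count for ABA at E-L 35 was 3. After rescaling to TPM, ABA gave 1, 3 and 2 calls at the first 3 stages, and control E-L 35 against E-L 34 gave 4. In fits of only the 6 libraries compared, which have fewer samples, ABA gave 0 calls both at E-L 35 and at harvest. NAA likewise gave 0 at both. For ABA at harvest and NAA at E-L 35, 0 of all genes were called too, so these zeros are not particular to the heat shock genes. Of all genes, 79 rose and 37 fell for ABA at E-L 35, and 46 and 181 for NAA at harvest. The control gave 1 call from E-L 34 to E-L 35 (a rise), where 54 of all genes rose and 49 fell. It gave 3 from E-L 35 to E-L 36, where 142 of all genes rose and 522 fell. The change of the ABA effect from E-L 36 to E-L 38 had 5 calls without the filter on low values and 5 with median-of-ratios scaling. Where no cause is named, the cause was not tested.

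Leaving out each library in turn gave 0 to 2, 0 to 7, 0 to 1 and 1 to 9 calls for ABA at E-L 34, 35, 36 and 38, and 34 to 42, 6 to 11, 20 to 25 and 0 to 5 for NAA. It gave 2 to 4, 3 to 7 and 21 to 30 for the control steps, 1 to 4, 3 to 7 and 4 to 13 for the changes of the ABA effect, and 10 to 19, 30 to 35 and 16 to 26 for those of the NAA effect.

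With replicate number as a block, NAA at E-L 34 gave 41 calls and at E-L 36 gave 26, and no count moved by more than 1.5 times. Deviations of libraries with the same number correlated at -0.291 to 0.338 and never above 0.1 in all 3 pairs, so the numbers were not read as a pairing. The paper's methods mention a randomized block design, but which plot or block a column came from is not given in the sources used here. The main fit therefore has no block. It treats libraries of different stages as independent, although the same plots may have been sampled again. The planned description of promoter elements was not run, since no promoter sequences were used here. The FPKM files give no counts, so the absolute depth behind a low value is unknown.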

Other observations

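Within a group, sHSPs that were high in one library tended to be high together. After removing the group means on the log2(FPKM + 1) scale, the median correlation over 820 pairs of the 41 tested sHSPs was 0.30, and 31.3% of the pairs were above 0.5. For the 15 class I genes the median was 0.47. It was 0.10 for the HSP70s, 0.14 for the HSP90s and 0.14 for the HSFs, beside 0.02 and 2.57% over all pairs of the 17598 genes tested. These are descriptions over 36 libraries that the genes share, and array genes may also share reads. The libraries that stood apart by the median sHSP deviation were ABA at E-L 36 replicate 1 (-0.54) and replicate 2 (0.43), ABA at E-L 38 replicate 2 (0.50) and NAA at E-L 34 replicate 1 (-0.33).

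At 0 FPKM in at least 30 of the 36 libraries were 9 of the 107 genes, and 71 were above 0 in every library.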
